A study of Mus musculus with 16 samples.

Results

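The 8 genes described here, Gata1, Gata2, Zfpm1, Gfi1b, Tal1, Lyl1, Lmo2 and Ldb1, encode GATA transcription factors of blood cells and the proteins that work with them on DNA. They were chosen by name. Each had 1 probe set that maps to 1 gene symbol, and all 8 passed the filter on dim signal, out of 16805 probe sets or genes tested. The arrays measured total RNA from suspensions of fetal liver cells of mouse embryos, on a log2 scale of signal (1 unit is a doubling). The 16 arrays fell into 8 groups, with 1 array labelled female and 1 labelled male in each. The genotypes were ERG/GATA1s (both an ERG transgene and the allele for the short GATA1 isoform), WT/GATA1s (the GATA1s allele without the transgene), ERG Tg (the transgene alone) and wild type (WT). Each genotype was sampled at E14.5 and at E12.5, days of gestation, to ask which genes respond to ERG and to either form of GATA1. The sources used here do not give the transgene's promoter, how many copies of the X-linked GATA1s allele an embryo had, the mouse strain or whether embryos were pooled. The p-values therefore reflect only how far these arrays varied, which may be technical.

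GATA1 and GATA2 bind the same short DNA word. GATA2 acts in stem and progenitor cells and in mast cells, and GATA1 acts in maturing red cells and megakaryocytes, where it takes over sites from GATA2 and lowers Gata2 transcription, a change known as the GATA switch. FOG1, the product of Zfpm1, binds the zinc finger of GATA1 and brings repressor or activator proteins with it, and GFI1B is a repressor needed by red cells and megakaryocytes. TAL1 and its relative LYL1 bind E-box words and are linked to GATA factors through the bridge proteins LMO2 and LDB1. GATA1s lacks the start of the GATA1 protein and keeps its zinc fingers, and ERG is an ETS family factor of stem cells and megakaryocytes.

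Promoter windows are shown for Gata2, which varied most, for Lyl1, whose E14.5 arrays split by the transgene as those of Gata2 did, and for Gfi1b, for its GATA word. RefSeq windows of GRCm38.p6, from 250 bases before to 50 bases after an annotated start, were held for 7 of the 8 genes (11 windows), and Lmo2 is named only. Letters are in lower case with matches in capitals, 5′ to 3′ along the strand of the gene. The GATA words searched, on both strands, were AGATAA and AGATAG with TGATAA and also TGATAG. The ETS words were AGGAAG and CGGAAG, and the E-box word was CAGNTG. Words of different kinds were allowed to overlap. Gata2 has windows on chromosome 6, plus strand, at chr6:88193641-88193940 and chr6:88198414-88198713. Gfi1b lies on the minus strand at chr2:28621933-28622232 and Lyl1 on the plus strand at chr8:84701207-84701506.
Gata2 window 1: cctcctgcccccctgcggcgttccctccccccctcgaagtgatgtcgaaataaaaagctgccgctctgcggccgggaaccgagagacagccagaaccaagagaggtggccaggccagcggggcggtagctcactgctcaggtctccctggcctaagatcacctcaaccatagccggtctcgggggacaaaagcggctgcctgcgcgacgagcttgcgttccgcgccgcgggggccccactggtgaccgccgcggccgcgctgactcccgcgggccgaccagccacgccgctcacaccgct
Gata2 window 2: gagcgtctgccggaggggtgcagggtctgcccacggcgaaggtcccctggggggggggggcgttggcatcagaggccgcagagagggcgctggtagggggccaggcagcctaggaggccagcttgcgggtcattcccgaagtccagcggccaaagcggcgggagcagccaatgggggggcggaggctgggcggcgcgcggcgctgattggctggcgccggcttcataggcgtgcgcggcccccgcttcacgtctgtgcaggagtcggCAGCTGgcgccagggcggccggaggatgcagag
Gfi1b window: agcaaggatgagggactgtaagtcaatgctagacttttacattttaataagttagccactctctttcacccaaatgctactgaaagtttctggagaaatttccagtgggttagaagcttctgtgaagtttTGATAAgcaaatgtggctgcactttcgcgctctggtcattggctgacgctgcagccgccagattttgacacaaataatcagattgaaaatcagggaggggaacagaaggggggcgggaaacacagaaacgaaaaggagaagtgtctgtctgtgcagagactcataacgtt
Lyl1 window: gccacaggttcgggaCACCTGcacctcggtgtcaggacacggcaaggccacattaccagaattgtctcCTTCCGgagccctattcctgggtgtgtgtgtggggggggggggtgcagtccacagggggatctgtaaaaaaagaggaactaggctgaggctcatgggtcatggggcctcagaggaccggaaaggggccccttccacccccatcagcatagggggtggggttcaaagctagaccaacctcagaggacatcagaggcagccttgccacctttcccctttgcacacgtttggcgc
The capitals are an E-box word in Gata2 window 2, a GATA word in the Gfi1b window at position -120 from the transcription start, and an E-box word followed by an ETS word on the other strand in the Lyl1 window. Gata2 window 1 held none of the words. Of the 11 windows, 3 held a GATA word, 5 an ETS word and 4 an E-box word. Among 32817 promoter windows of the same 300 bases, 29.8% held a GATA word, 46.5% an ETS word and 51.4% an E-box word. The files hold no binding data, so these matches are descriptions of letters.

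The labels of 3 arrays went against markers of sex. Xist, the RNA that coats the silenced X of females, and the mean of 3 genes of the Y chromosome (Uty, Kdm5d and Eif2s3y) placed ERG/GATA1s labelled female at E14.5 (Xist 4.22, Y-linked 6.50) with arrays labelled male. At E12.5 the arrays labelled male of ERG/GATA1s (9.51 and 3.92) and of WT/GATA1s (9.83 and 3.77) lay with arrays labelled female. A further 2 arrays labelled male had both signals high, E14.5 ERG Tg (10.03 and 5.27) and E12.5 WT (9.35 and 4.95). Both E14.5 ERG/GATA1s arrays were thus on the male side, and both E12.5 arrays of ERG/GATA1s and of WT/GATA1s on the female side. In those groups sex, and with it the dose of the X-linked allele, cannot be told apart from genotype or stage. Calls that involve those groups are given with and without the 3 arrays. Pairs counted below are of the same labelled sex, so pairs that hold 1 of the 3 arrays may join unlike sexes. Signal ran from 1.96 to 13.32 over 28270 probe sets, array medians from 4.79 to 4.94, and the correlation between the arrays of a group from 0.9853 to 0.9969. The median residual SD was 0.161, and the small number of arrays limits the precision.

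Gata1, the gene carrying the GATA1s allele, varied little. Its signal at E14.5 on the arrays labelled female and male was 9.53 and 9.40 in ERG/GATA1s, 9.26 and 9.64 in WT/GATA1s, 9.22 and 9.29 in ERG Tg, and 9.22 and 9.22 in WT. At E12.5 it was 9.60 and 9.30 in ERG/GATA1s, 9.56 and 9.58 in WT/GATA1s, 9.69 and 9.36 in ERG Tg, and 9.76 and 10.02 in WT. Both WT arrays of E12.5 were thus the highest of all 16, and no array of a GATA1s carrier was below the WT arrays of E14.5. No genotype changed Gata1 by limma's test at either stage. The largest difference from WT was -0.44 ± 0.17 (SE) in ERG/GATA1s at E12.5 (adjusted p = 0.266, 2 arrays against 2). Probe sequences are not used here, so it is not known here which isoforms the probe set reads, and the signal checks no genotype label.

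**Figure D1:**
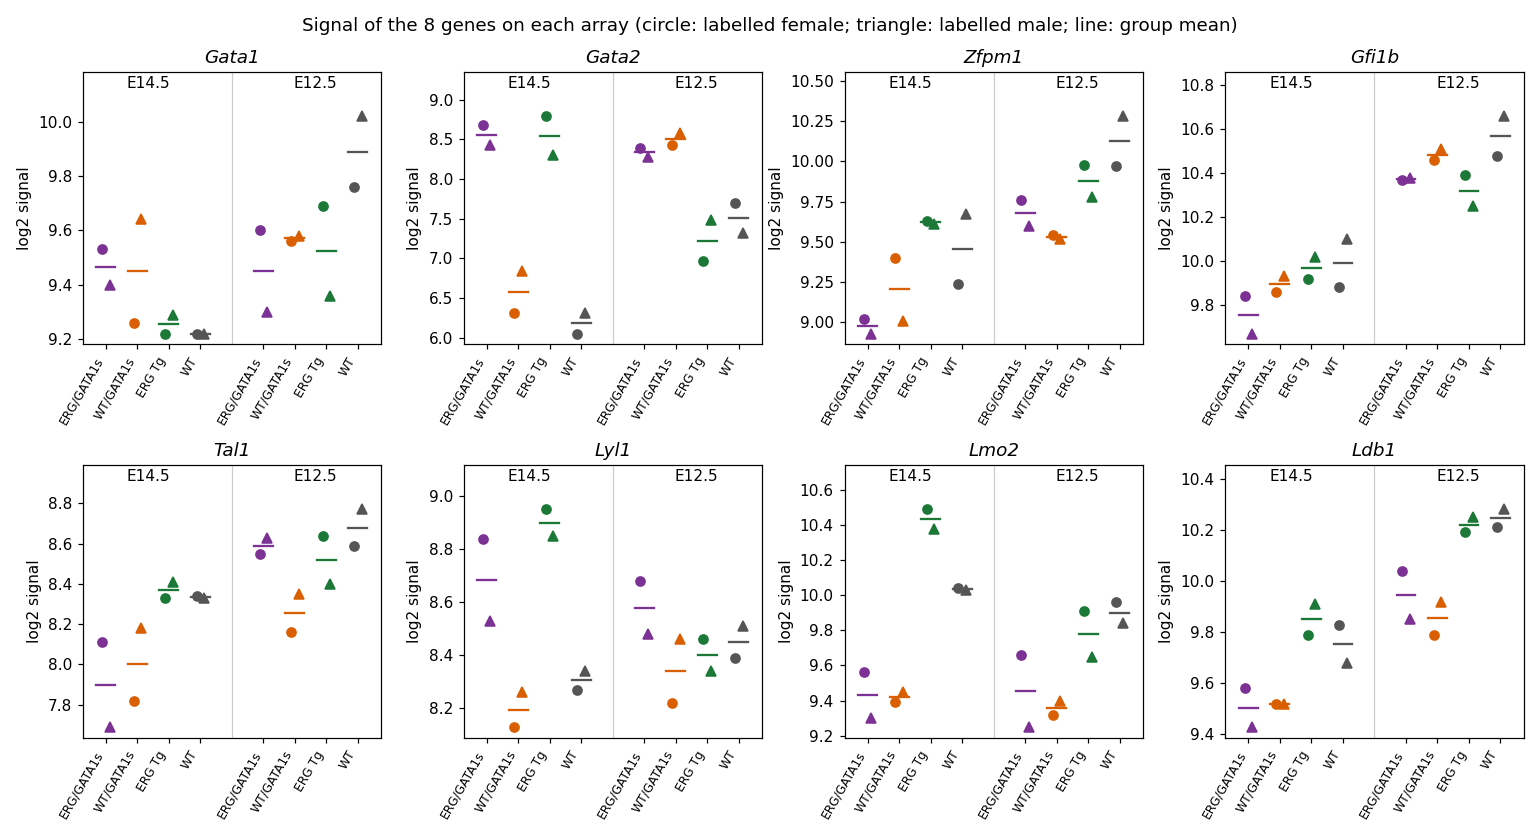
Log2 signal of the 8 genes on every array, E14.5 on the left of each panel and E12.5 on the right. Circles are arrays labelled female, triangles arrays labelled male, and the line is the mean of the 2 arrays of a group. Gata2 spans 6.05 to 8.79, and the other 7 genes each span 1.35 or less.

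Gata2 varied most of the 8 genes, over 2.74 units. At E14.5 its signal was 8.68 and 8.43 in ERG/GATA1s, 6.31 and 6.84 in WT/GATA1s, 8.79 and 8.30 in ERG Tg, and 6.05 and 6.31 in WT. Signal at E12.5 was 8.39 and 8.28 in ERG/GATA1s, 8.43 and 8.58 in WT/GATA1s, 6.96 and 7.48 in ERG Tg, and 7.70 and 7.32 in WT. At E14.5 the 4 arrays with the transgene stood above the 4 without it, and at E12.5 the 4 arrays with GATA1s stood above the 4 without it. How many of all genes have arrays that separate without overlap was not counted, here or for the genes below.

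In ERG Tg at E14.5 Gata2 was 5.15-fold higher than in WT (2.37 ± 0.23 on the log2 scale, adjusted p = 0.000476, limma). It was the 1 gene of the 8 that passed, while 1.45% of all genes tested passed (1.04% higher and 0.411% lower). Without the 3 arrays the adjusted p was 0.0149. With only the 4 arrays compared it was 0.604, and that fit has a single residual degree of freedom to set the spread from. At E12.5 the difference from WT was -0.29 ± 0.23 (adjusted p = 0.955), and 0 of the 8 genes passed, as did 0% of all genes (limma; at an unadjusted p under 0.05, 1 of the 8 and 714 of all). Over both stages Gata2 was 1.04 ± 0.16 higher in ERG Tg (adjusted p = 0.0279, 3 of 4 pairs of the same stage and labelled sex). It was again the 1 gene that passed, with 0.173% of all genes (0.155% higher and 0.0179% lower). That call was lost without the 3 arrays, where the difference was again 1.04 (adjusted p = 0.173), and without any 1 of 6 single arrays (up to 0.178). These were the E12.5 arrays labelled male of ERG Tg and WT, both E12.5 WT/GATA1s arrays, and the E14.5 arrays labelled female of ERG Tg and WT.

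In WT/GATA1s Gata2 was 1.99-fold (0.995 ± 0.23 on the log2 scale) higher than in WT at E12.5, which did not pass (adjusted p = 0.0617), and 0.40 ± 0.23 higher at E14.5 (adjusted p = 0.517). The E12.5 arrays of the 2 groups did not overlap, and those of E14.5 did. Limma called 0 of the 8 genes at E12.5, against 1.06% of all genes (0.661% higher and 0.399% lower), and 0 at E14.5, against 1% (0.72% higher and 0.28% lower). At an unadjusted p under 0.05 these were 5 and 1 of the 8, with 2706 and 2300 of all 16805. Over both stages Gata2 rose by 0.70 ± 0.16 (adjusted p = 0.0375, 4 of 4 pairs), and 2 of the 8 genes passed, with 3.5% of all genes (2.08% higher and 1.43% lower). The Gata2 call was lost without the 3 arrays (adjusted p = 0.132). It was also lost without either E12.5 WT/GATA1s array or without 1 of 3 others, which were WT at E12.5 labelled male, WT at E14.5 labelled female and WT/GATA1s at E14.5 labelled male (adjusted p up to 0.178).

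In ERG/GATA1s Gata2 was 5.19-fold higher than in WT at E14.5 (2.38 ± 0.23, adjusted p = 0.000159). The call held without the 3 arrays (2.21, adjusted p = 0.0269), which leaves 1 ERG/GATA1s array at E14.5, and not with only the 4 arrays compared (adjusted p = 0.102). At E12.5 the difference was 0.83 ± 0.23 (adjusted p = 0.192). Over both stages it was 1.60 ± 0.16 (adjusted p = 0.000367, 4 of 4 pairs), and 1.57 without the 3 arrays (adjusted p = 0.0343). All 4 ERG/GATA1s arrays lay above all 4 WT arrays. Of the 8 genes, 2 passed at E14.5, against 8.99% of all genes (4.45% higher and 4.54% lower). Over both stages 3 passed, against 10.2% (3.97% higher and 6.27% lower). At E12.5 limma called 0 of the 8 and 0% of all genes, and 5 of the 8 and 2610 of all had an unadjusted p under 0.05.

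**Figure D2:**
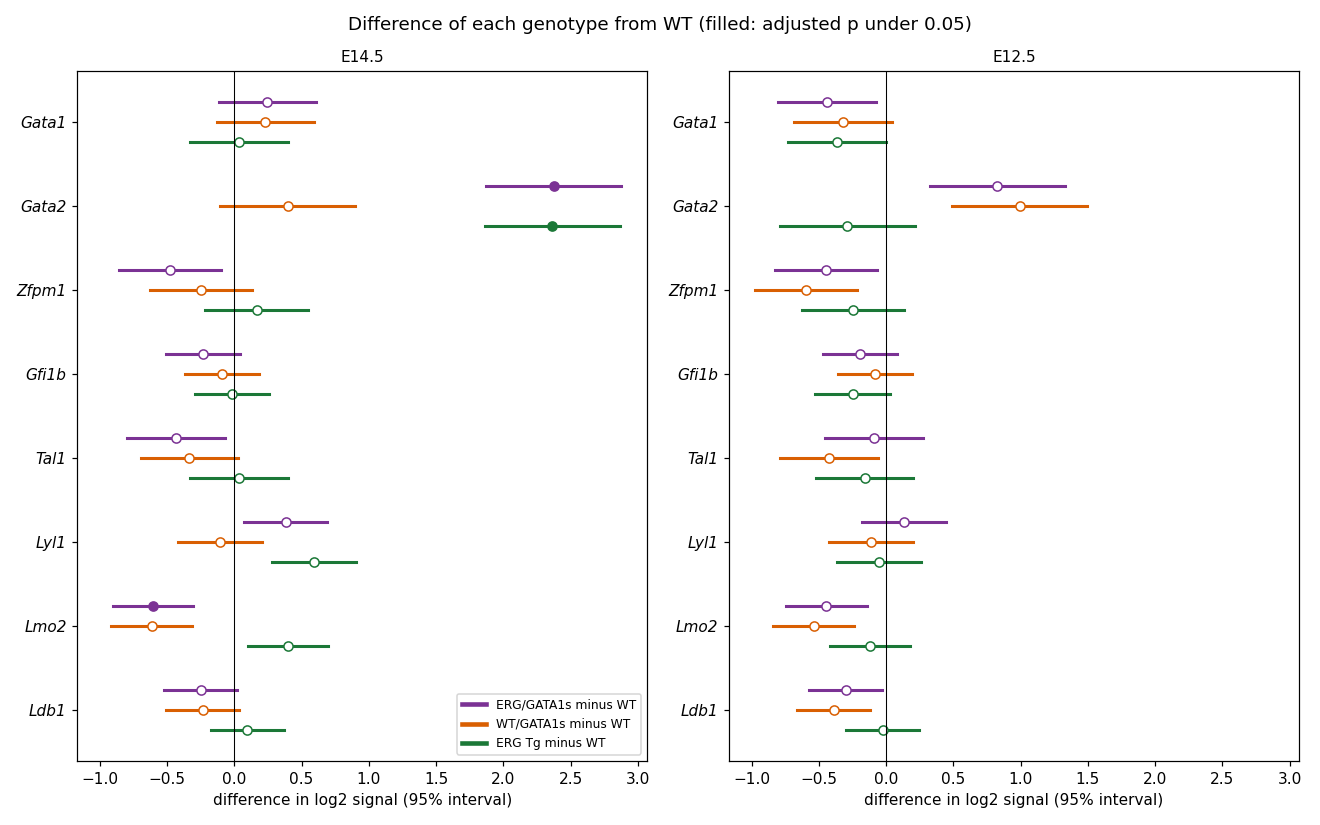
Difference in log2 signal of ERG/GATA1s, WT/GATA1s and ERG Tg from WT for the 8 genes, E14.5 on the left and E12.5 on the right, with 95% intervals. Filled points passed at an adjusted p under 0.05. At E14.5 Gata2 lies at 2.38 for ERG/GATA1s, 0.40 for WT/GATA1s and 2.37 for ERG Tg.

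The direction of the stage difference in Gata2 also depended on genotype. Gata2 was lower at E14.5 than at E12.5 in WT/GATA1s (-1.93 ± 0.23, 3.81-fold, adjusted p = 8.2e-05) and in WT (-1.33 ± 0.23, 2.51-fold, adjusted p = 0.00264). It was higher at E14.5 in ERG Tg (1.33 ± 0.23, 2.51-fold, adjusted p = 0.00249), and in ERG/GATA1s the difference was 0.22 ± 0.23 (adjusted p = 0.496). Gata2 was the 1 gene of the 8 to pass the F test of all stage by genotype terms (F = 40.6, adjusted p = 0.00239), with 1.91% of all genes, and it ranked 6 of 16805. By the single terms, the effect of ERG Tg was 2.66 ± 0.33 higher at E14.5 than at E12.5 (adjusted p = 0.00938). The term of ERG/GATA1s was 1.55 ± 0.33 (adjusted p = 0.064) and that of WT/GATA1s -0.60 ± 0.33 (adjusted p = 0.593). Of all genes 0.179%, 0.506% and 0.0952% passed for ERG Tg, ERG/GATA1s and WT/GATA1s. The F test call was lost without the 3 arrays (adjusted p = 0.138).

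The carriers of both alleles were next set against the carriers of each. At E14.5 Gata2 was 1.98 ± 0.23 higher in ERG/GATA1s than in WT/GATA1s (adjusted p = 0.00215), the 1 gene of the 8 that passed, with 1.44% of all genes (0.619% higher and 0.821% lower). With the 3 arrays left out, the adjusted p was 0.104, and with only the 4 arrays compared it was also above 0.05. Against ERG Tg at E14.5 the difference in Gata2 was 0.01, with a 95% interval of -0.49 to 0.51 (adjusted p = 0.994). The E12.5 values were -0.17 from WT/GATA1s, with an interval of -0.67 to 0.33 (adjusted p = 0.959). There limma called 0 of the 8 and 0% of all genes, and 0 of the 8 and 1024 of all had an unadjusted p under 0.05. Against ERG Tg at E12.5 Gata2 was 1.12 ± 0.23 higher (adjusted p = 0.049), the 1 gene that passed, with 0.768% of all genes (0.375% higher and 0.393% lower). That call did not hold without the 3 arrays (adjusted p = 0.361) and was lost in 11 of the 16 fits that each left out 1 array. The 5 arrays whose removal kept it were, from E12.5, the female-labelled one of ERG/GATA1s and, from E14.5, all 4 of WT/GATA1s and WT.

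Ordered by group mean, Gata2 was highest in E14.5 ERG/GATA1s (8.56), E14.5 ERG Tg (8.55), E12.5 WT/GATA1s (8.51) and E12.5 ERG/GATA1s (8.34). E12.5 WT (7.51), E12.5 ERG Tg (7.22), E14.5 WT/GATA1s (6.58) and E14.5 WT (6.18) followed. No step between neighbours in that order passed, and the smallest adjusted p was 0.0782, between E12.5 ERG Tg and E14.5 WT/GATA1s.

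Bulk RNA does not tell fewer cells of a type from less RNA per cell, so levels of cell type markers are given beside Gata2. The mean of 9 mast cell, basophil and eosinophil markers at E14.5 was 4.48 to 4.62 in ERG/GATA1s, 4.49 to 4.66 in WT/GATA1s, 4.13 to 4.24 in ERG Tg and 4.73 to 4.99 in WT. Ms4a2, Fcer1a and Mcpt8, 3 defining markers of those cells, were at or below the dim level of 3.74 on all 16 arrays. The mean of 7 stem and progenitor markers, of which Mecom was dim on 3 arrays, was 6.28 in both E14.5 ERG/GATA1s arrays. At that stage it was 6.28 to 6.55 in WT/GATA1s, 6.04 to 6.05 in ERG Tg and 6.40 to 6.46 in WT. At E12.5 the same mean was not lower in the groups with high Gata2. It was 6.71 to 6.81 in ERG/GATA1s, 6.62 to 6.70 in WT/GATA1s, 6.48 to 6.54 in ERG Tg and 6.57 to 6.62 in WT. The means of both lists were thus lower in the 2 genotypes with high Gata2 at E14.5 than in WT. In E14.5 ERG/GATA1s the group means of Cd34 (7.595, WT 7.505), Meis1 (7.065, WT 6.915) and Hdc (6.57, WT 6.47) went the other way. The mean of the mast cell, basophil and eosinophil list was also below WT in E14.5 WT/GATA1s, where Gata2 was not high. Endothelial cells also express Gata2. The mean of 6 endothelial markers at E14.5 was 7.21 to 7.25 in ERG/GATA1s, 7.07 to 7.10 in WT/GATA1s, 7.10 to 7.20 in ERG Tg and 6.94 to 7.09 in WT. It was above WT in ERG/GATA1s and narrowly so in ERG Tg (lowest array 7.103 against a highest of 7.093 in WT). Stab2 and Tek went the other way, with group means in ERG/GATA1s and ERG Tg of 7.23 and 7.415 for Stab2 (WT 7.59) and 5.855 and 6.315 for Tek (WT 6.36). The mean of 6 of 8 megakaryocyte and platelet markers at E14.5 was 9.41 to 9.49 in ERG/GATA1s, 8.83 to 9.38 in WT/GATA1s, 8.25 to 8.45 in ERG Tg and 8.33 to 8.43 in WT. At E12.5 it was 8.63 to 8.82 in ERG/GATA1s, 9.37 to 9.45 in WT/GATA1s, 8.03 to 8.04 in ERG Tg and 8.05 to 8.51 in WT. The mean of the megakaryocyte markers was thus above WT in the E12.5 groups with high Gata2. It was also above WT in both GATA1s groups of E14.5, of which only ERG/GATA1s had high Gata2. By group mean, Ppbp alone of these markers went the other way there. It was below WT in E14.5 ERG/GATA1s (10.65), E14.5 WT/GATA1s (10.935, WT 11.215) and E12.5 ERG/GATA1s (9, WT 9.735). In E14.5 ERG Tg, where Gata2 was also high, the megakaryocyte mean overlapped with WT and the markers were split. Group means there were higher than in WT for Gp5 (7.635 against 6.29), Treml1 (8.275 against 7.595) and Itga2b (7.635 against 7.045). They were lower for Pf4 (8.585 against 9.54), Gp9 (7.795 against 8.585) and Ppbp (10.175 against 11.215). The mean of 5 of 6 hepatocyte markers at E12.5 was 9.42 to 9.58 in ERG/GATA1s, 9.31 to 9.34 in WT/GATA1s, 10.06 to 10.53 in ERG Tg and 10.25 to 10.37 in WT. Hepatocyte markers were thus lower than WT, with no overlap, in both E12.5 groups with high Gata2. The part of these markers in the Gata2 differences was not tested.

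Zfpm1 signal at E14.5 was 9.02 and 8.93 in ERG/GATA1s, 9.40 and 9.01 in WT/GATA1s, 9.63 and 9.61 in ERG Tg, and 9.24 and 9.67 in WT. Signal at E12.5 was 9.76 and 9.60 in ERG/GATA1s, 9.54 and 9.52 in WT/GATA1s, 9.98 and 9.78 in ERG Tg, and 9.97 and 10.28 in WT. The E14.5 ERG/GATA1s arrays were among the lowest of the 16 and did not overlap with WT of that stage. Over both stages Zfpm1 was 0.46 ± 0.12 lower in ERG/GATA1s than in WT (adjusted p = 0.0329, lower in 4 of 4 pairs). At E14.5 it was 0.65 ± 0.18 lower in ERG/GATA1s than in ERG Tg (adjusted p = 0.044), 1 of 2 genes of the 8 that passed there, against 7.08% of all genes (3.53% higher and 3.55% lower). The adjusted p values without the 3 arrays were 0.24 and 0.192. The first was also lost without either E14.5 ERG/GATA1s array, ERG/GATA1s labelled male at E12.5 or either WT array labelled male, with adjusted p up to 0.148. The second was lost without any of 8 single arrays, which were the 4 compared and all 4 E12.5 arrays of ERG Tg and WT/GATA1s, up to 0.242. In WT/GATA1s over both stages the difference from WT was -0.42 ± 0.12 (adjusted p = 0.0822).

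Gfi1b was the steadiest of the 8 between arrays of a group, together with Ldb1. At E14.5 its signal was 9.84 and 9.67 in ERG/GATA1s, 9.86 and 9.93 in WT/GATA1s, 9.92 and 10.02 in ERG Tg, and 9.88 and 10.10 in WT. The E12.5 values were 10.37 and 10.38 in ERG/GATA1s, 10.46 and 10.51 in WT/GATA1s, 10.39 and 10.25 in ERG Tg, and 10.48 and 10.66 in WT. Every E14.5 array lay below every E12.5 array. No genotype difference from WT passed for Gfi1b, and the largest was -0.25 ± 0.13 in ERG Tg at E12.5 (adjusted p = 0.954).

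Lmo2, the bridge between GATA1 and TAL1, went the other way from Gata2 in GATA1s carriers. Its signal at E14.5 was 9.56 and 9.30 in ERG/GATA1s, 9.39 and 9.45 in WT/GATA1s, 10.49 and 10.38 in ERG Tg, and 10.04 and 10.03 in WT. At E12.5 it was 9.66 and 9.25 in ERG/GATA1s, 9.32 and 9.40 in WT/GATA1s, 9.91 and 9.65 in ERG Tg, and 9.96 and 9.84 in WT. All 8 arrays with GATA1s lay below all 4 WT arrays, and the ERG Tg arrays of E14.5 were the highest of all. Lmo2 fell in WT/GATA1s by 0.58 ± 0.10 over both stages (1.49-fold, adjusted p = 0.00767, lower in 4 of 4 pairs). The fall was 0.62 without the 3 arrays (adjusted p = 0.0353). It was -0.54 at E12.5 (adjusted p = 0.0796) and -0.62 at E14.5 (adjusted p = 0.0582), neither of which passed. Removing the E12.5 WT/GATA1s array labelled female raised the adjusted p over both stages to 0.0604.

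In ERG/GATA1s Lmo2 fell by 0.61 ± 0.14 at E14.5 (adjusted p = 0.0162) and by 0.53 ± 0.10 over both stages (adjusted p = 0.00572, lower in 4 of 4 pairs). With the 3 arrays left out, these adjusted p values were 0.0524 and 0.0605. The E14.5 call was also lost without any of the 4 arrays compared (adjusted p up to 0.149). In ERG Tg at E14.5 the difference from WT was 0.40 ± 0.14 (adjusted p = 0.272), with no overlap of arrays. Lmo2 was 2.01-fold lower in ERG/GATA1s than in ERG Tg at E14.5 (-1.01 ± 0.14, adjusted p = 0.00106). That call held without the 3 arrays (adjusted p = 0.0183) and with each of the 16 arrays left out. From WT/GATA1s, Lmo2 in ERG/GATA1s differed by 0.01 at E14.5, with a 95% interval of -0.29 to 0.31 (adjusted p = 0.997). Markers of red cells, which use LMO2, averaged 9.79 to 10.19 in ERG/GATA1s at E14.5 (Alas2, Slc4a1 and Epb42, 3 of 6 listed), against 10.72 to 10.77 in WT/GATA1s, 10.66 to 10.70 in ERG Tg and 10.76 to 11.22 in WT. Neutrophil and monocyte markers (6 of 7 measured) averaged 8.75 to 9.11 in ERG/GATA1s, 7.72 to 8.24 in WT/GATA1s, 6.68 to 6.84 in ERG Tg and 7.70 to 8.28 in WT. Their part in the Lmo2 and Zfpm1 differences was not tested.

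Tal1 and Lyl1, the related E-box factors, had little in common over the 8 group means (r = 0.074). Tal1 signal at E14.5 was 8.11 and 7.69 in ERG/GATA1s, 7.82 and 8.18 in WT/GATA1s, 8.33 and 8.41 in ERG Tg, and 8.34 and 8.33 in WT. Signal at E12.5 was 8.55 and 8.63 in ERG/GATA1s, 8.16 and 8.35 in WT/GATA1s, 8.64 and 8.40 in ERG Tg, and 8.59 and 8.77 in WT. The GATA1s carriers of E14.5 lay below WT of that stage, with differences of -0.44 ± 0.17 in ERG/GATA1s (adjusted p = 0.141) and -0.34 ± 0.17 in WT/GATA1s (adjusted p = 0.417). Lyl1 signal at E14.5 was 8.84 and 8.53 in ERG/GATA1s, 8.13 and 8.26 in WT/GATA1s, 8.95 and 8.85 in ERG Tg, and 8.27 and 8.34 in WT. The E12.5 values were 8.68 and 8.48 in ERG/GATA1s, 8.22 and 8.46 in WT/GATA1s, 8.46 and 8.34 in ERG Tg, and 8.39 and 8.51 in WT. At E14.5 the 4 arrays with the transgene lay above the 4 without it, as for Gata2. Its difference from WT was 0.60 ± 0.14 in ERG Tg (1.51-fold, adjusted p = 0.0684) and 0.38 ± 0.14 in ERG/GATA1s (adjusted p = 0.134), neither of which passed.

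Ldb1, whose product joins LMO2 complexes at distant sites, had E14.5 signal of 9.58 and 9.43 in ERG/GATA1s, 9.52 and 9.52 in WT/GATA1s, 9.79 and 9.91 in ERG Tg, and 9.83 and 9.68 in WT. At E12.5 it was 10.04 and 9.85 in ERG/GATA1s, 9.79 and 9.92 in WT/GATA1s, 10.19 and 10.25 in ERG Tg, and 10.21 and 10.28 in WT. At each stage the 4 arrays with GATA1s lay below the 4 without it, and how many of all genes separate in this way was not counted. Over both stages the difference from WT was -0.28 ± 0.09 in ERG/GATA1s (adjusted p = 0.0688) and -0.31 ± 0.09 in WT/GATA1s (adjusted p = 0.0724), lower in 4 of 4 pairs each, and neither passed.

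No ERG by GATA1s term passed for any of the 8 genes. The term asks whether the log2 difference of ERG/GATA1s from WT/GATA1s departs from that of ERG Tg from WT. At E14.5 all 8 terms were negative, from -0.40 for Zfpm1 to -0.02 for Gata1, and limma called 0 of the 8 against 0.0655% of all genes (0.0536% higher and 0.0119% lower). At E12.5 all 8 were positive, from 0.12 for Ldb1 to 0.50 for Tal1, and limma called 0 of the 8 and 0% of all genes. At an unadjusted p under 0.05 there were 0 of the 8 at each stage, with 825 of all genes at E14.5 and 972 at E12.5. The 8 terms share the same arrays, so their common sign is not 8 separate observations.

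Between the stages most of the 8 genes were lower at E14.5. In WT 5 of the 8 fell, Gata1 (-0.67 ± 0.17, adjusted p = 0.016), Gata2, Zfpm1 (-0.67 ± 0.18, adjusted p = 0.02), Gfi1b (-0.58 ± 0.13, adjusted p = 0.00883) and Ldb1 (-0.49 ± 0.13, adjusted p = 0.0179). Of all genes 18% passed in WT, 11.3% as higher and 6.71% as lower. In ERG/GATA1s 4 fell, Zfpm1 (-0.71 ± 0.18, adjusted p = 0.0141), Tal1 (-0.69 ± 0.17, adjusted p = 0.0127), Gfi1b (-0.62 ± 0.13, adjusted p = 0.00531) and Ldb1 (-0.44 ± 0.13, adjusted p = 0.0263), against 21.1% of all genes (13.6% higher and 7.49% lower). In WT/GATA1s 2 fell, Gata2 and Gfi1b (-0.59 ± 0.13, adjusted p = 0.00552), against 21.9% of all genes (13.4% higher and 8.57% lower). In ERG Tg none of the 8 fell by the test and 3 rose, Gata2, Lmo2 (0.66 ± 0.14, adjusted p = 0.0069) and Lyl1 (0.50 ± 0.14, adjusted p = 0.0311), against 17.4% of all genes (12.5% higher and 4.94% lower). The median over the 8 genes was -0.23 in ERG/GATA1s, -0.29 in WT/GATA1s, -0.21 in ERG Tg and -0.54 in WT, and the median over all genes was -0.02, -0.055, -0.015 and -0.005 in the same groups.

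All 4 calls in ERG/GATA1s were lost without the 3 arrays, which leaves 1 ERG/GATA1s array at each stage. The differences then ranged from -0.63 for Ldb1 to -0.93 for Tal1, and a smaller share of all genes passed there too. Both calls in WT/GATA1s were kept (adjusted p = 0.00934 for Gata2 and 0.0312 for Gfi1b). By single arrays, each of the 4 in ERG/GATA1s was lost without the E14.5 array labelled male, Ldb1 and Zfpm1 also without the one labelled female, Tal1 without the E12.5 array labelled male and Ldb1 without the E12.5 array labelled female. In WT each call other than Gata2 was lost without the E12.5 array labelled male. Gata1, Zfpm1 and Gfi1b were lost without the female-labelled WT array of E14.5, without the one labelled male Gata1 and Ldb1, and without the E12.5 WT array labelled female Ldb1, with adjusted p up to 0.227 for Zfpm1. In ERG Tg the Lmo2 call was lost without any of 3 arrays (adjusted p up to 0.0876) and the Lyl1 call without any of the 4 ERG Tg arrays (up to 0.218). For Lmo2 these were the E12.5 ERG Tg array labelled male and either E14.5 ERG Tg array. Markers of other liver cells also differed between the stages. In WT the mean of the hepatocyte markers was 10.97 to 11.52 at E14.5 and 10.25 to 10.37 at E12.5, and that of 6 macrophage markers 7.21 to 7.53 and 6.36 to 6.44. The endothelial mean was 6.94 to 7.09 at E14.5 and 6.03 to 6.15 at E12.5, and that of 6 stellate and mesenchymal markers 6.32 to 6.98 and 5.92 to 5.96. In each of the 4 genotypes these 4 means were higher at E14.5 with no overlap. Some single markers were lower at E14.5 by group mean. In ERG/GATA1s these were Col1a1 (7.45, from 8.295 at E12.5), Col1a2 (6.915, from 7.225) and Des (5.28, from 5.445). In WT/GATA1s they were Col1a1 and Pecam1, in ERG Tg Csf1r, and in WT Des and Pecam1. The part of the 4 means in the stage differences was not tested. The stage by genotype F test did not pass for Lmo2 (adjusted p = 0.214) or Lyl1 (adjusted p = 0.249), so a difference between genotypes in their stage effect was not shown.

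**Figure D3:**
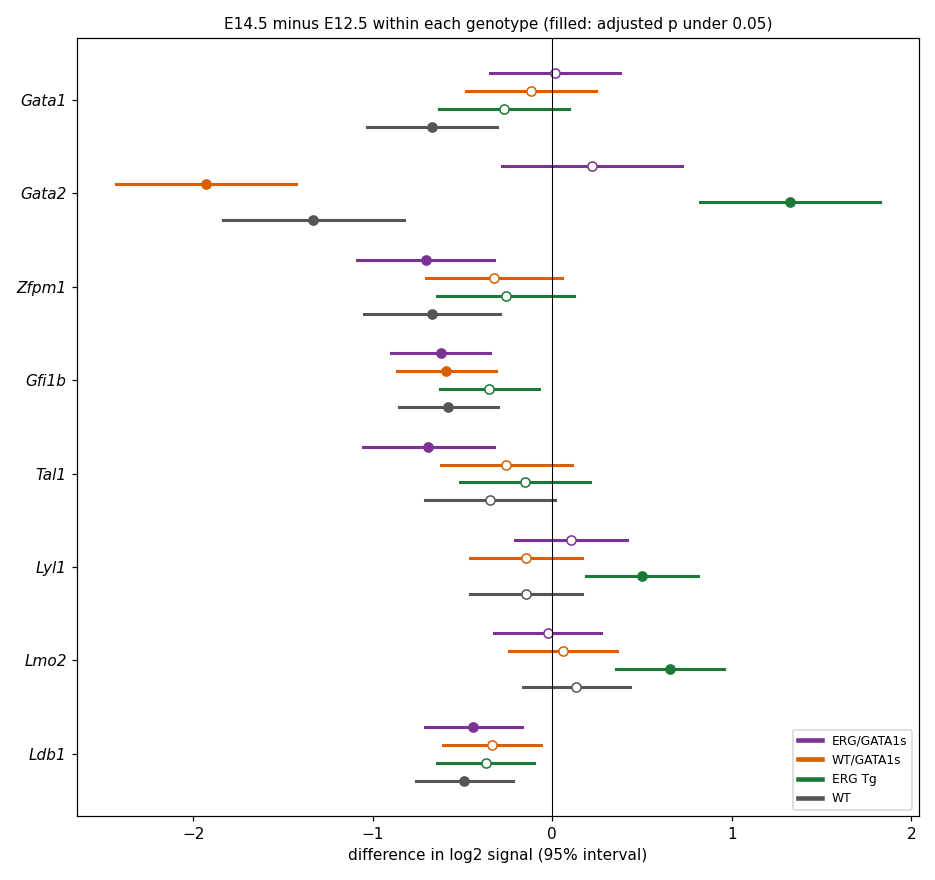
Difference in log2 signal between E14.5 and E12.5 within each genotype for the 8 genes, with 95% intervals. Filled points passed at an adjusted p under 0.05. Gata2 lies at -1.93 in WT/GATA1s and -1.33 in WT, and at 1.33 in ERG Tg.

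By group means, Zfpm1, Tal1 and Ldb1 ran together, with Pearson r of 0.97 between Zfpm1 and Ldb1, 0.951 between Zfpm1 and Tal1 and 0.919 between Tal1 and Ldb1 over the 8 groups. Gfi1b ran with them at r of 0.787 to 0.827. Gata2 ran with Lyl1 (r = 0.729) and not with Gata1 (r = 0.131) or Ldb1 (r = 0.019). The genes were read on the same arrays with the same normalization, and each stage holds several of the groups. These values therefore describe the 8 means and carry no test. Every gene other than Gata2, Lyl1 and Lmo2 had its highest group mean in E12.5 WT, Lyl1 and Lmo2 had theirs in E14.5 ERG Tg, and Gata2 in E14.5 ERG/GATA1s. The lowest was E14.5 ERG/GATA1s for Zfpm1, Gfi1b, Tal1 and Ldb1, E14.5 WT for Gata1 and Gata2, and WT/GATA1s for Lyl1 at E14.5 and Lmo2 at E12.5. No step between neighbours in the order of group means passed for any of the 8.

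**Figure D4:**
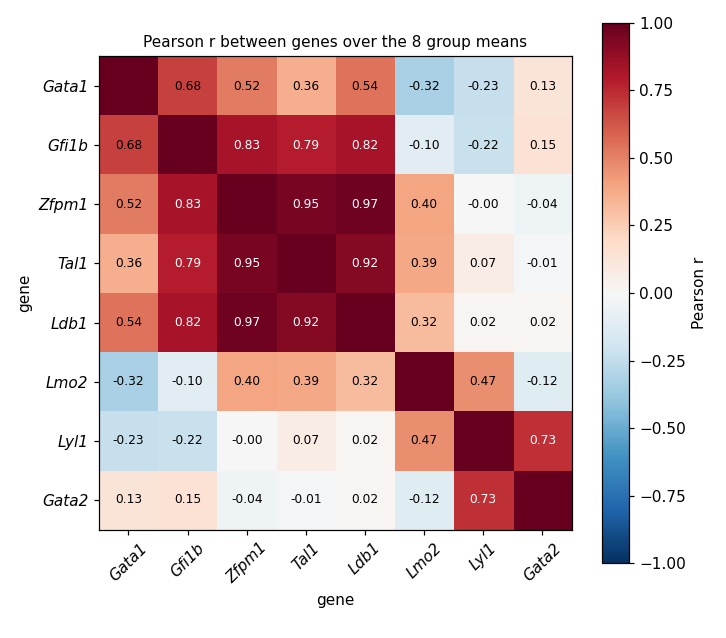
Pearson r between the 8 genes over the 8 group means, as a colour scale with each value printed. Gfi1b, Zfpm1, Tal1 and Ldb1 form a block of r from 0.787 to 0.97, and Gata2 and Lyl1 stand apart from it with r of 0.729 to each other.

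The genes whose group means followed Gata2 most closely were Treml2, a receptor of myeloid cells (r = 0.98 over 8 groups, 0.957 over 16 arrays), Fermt3, which activates integrins in blood cells (0.96 and 0.948), and Alox5, the leukotriene enzyme (0.956 and 0.926). Group means of Treml2 ran from 7.58 to 8.56, of Fermt3 from 7.82 to 9.41 and of Alox5 from 5.36 to 7.65. Those nearest to Lyl1 were Ccn2, a secreted matrix protein (r = 0.969), Aff3 (0.949) and Gem, a small GTPase (0.926). Thra, the thyroid hormone receptor alpha, was among the nearest 3 of both Zfpm1 and Ldb1 (r = 0.988 with each), beside Rusf1 (0.991) and Gatc (0.985) for Zfpm1 and Agbl5 (0.989) and Ccdc6 (0.988) for Ldb1. Ccnd3, cyclin D3, was nearest to Gfi1b (r = 0.987), followed by Pym1 (0.985) and Phc2 (0.984). Zc3h4 (r = 0.991), Drp2 (0.983) and Cluap1 (0.973) were nearest to Tal1. Slc4a1ap (0.987), Zcchc4 (0.979) and Nif3l1 (0.977) were nearest to Lmo2. Dpp3 (0.984), Rapgef1 (0.976) and Plod3 (0.975) were nearest to Gata1. These genes were picked from all those tested for their r over 8 points, so the values are a description with no test.

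Genes that GATA1 is known to activate in red cells were lower in ERG/GATA1s than in WT at E14.5. Of 17 listed, 11 were measured. In ERG/GATA1s at E14.5, 10 of the 11 fell and 0 rose, where 8.99% of all genes passed (4.54% lower), with a median of -0.88 against -0.02 over all genes. At E12.5 limma called 0 of the 11 (3 at an unadjusted p under 0.05), with a median of -0.205. The falls at E14.5 included Trim10 (-1.41 ± 0.28, adjusted p = 0.00781) and Alas2, the first enzyme of heme synthesis in red cells (-1.11 ± 0.17, adjusted p = 0.00159). Also among the E14.5 falls were the membrane protein Epb42 (-1.04 ± 0.20, adjusted p = 0.00663) and the erythropoietin receptor Epor (-0.90 ± 0.20, adjusted p = 0.0127). Over both stages 9 fell, where 10.2% of all genes passed. Without the 3 arrays 2 of the 11 fell at E14.5 and 0 over both stages (limma; 10 and 9 had an unadjusted p under 0.05), where 2.27% and 0.797% of all genes passed. The medians were then -0.91 and -0.58. In WT/GATA1s 1 fell over both stages, Ermap (-0.41 ± 0.10, adjusted p = 0.0487), where 3.5% of all genes passed, and without the 3 arrays limma called 0 of the 11 (4 at an unadjusted p under 0.05). In ERG Tg limma called 0 at E14.5, at E12.5 and over both stages, with 2, 3 and 6 at an unadjusted p under 0.05 and medians of -0.29, -0.31 and -0.29. Alas2, Slc4a1 and Epb42 are also the measured red cell markers given above. The other 6 were not analysed here.

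Genes that GATA1 is known to repress did not move together. Of all genes 8.99% passed in ERG/GATA1s at E14.5, 1.45% in ERG Tg at E14.5 and 3.5% in WT/GATA1s over both stages. Of 7 measured, 2 rose in ERG/GATA1s at E14.5, Rgs18, a regulator of G protein signals in platelets (1.37 ± 0.33, adjusted p = 0.0201), and Hhex, a homeobox factor (1.02 ± 0.29, adjusted p = 0.044). In ERG Tg at E14.5 Myc, the growth regulator, rose (0.76 ± 0.12, adjusted p = 0.00951) and Rgs18 fell (-1.46 ± 0.33, adjusted p = 0.0472). In WT/GATA1s over both stages Rgs18 rose (1.22 ± 0.23, adjusted p = 0.0142) and Myc fell (-0.43 ± 0.09, adjusted p = 0.02). The list's median was 0.16 in ERG/GATA1s and -0.05 in ERG Tg at E14.5, against -0.015 and -0.005 over all genes, and -0.045 in WT/GATA1s over both stages, against 0.005. With the 3 arrays left out, limma called 0 in ERG/GATA1s at E14.5, 0 in WT/GATA1s over both stages and 1 in ERG Tg at E14.5, and 2, 4 and 5 had an unadjusted p under 0.05. The shares of all genes were then 2.27%, 0.714% and 0.863%. Kit and Cd34, which are also stem cell markers, passed in none of these comparisons.

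Of the other factors of the stem cell group that TAL1, LYL1, LMO2 and GATA2 belong to, and PU.1, all 4 measured genes rose in ERG/GATA1s over both stages, where 10.2% of all genes passed. At E14.5 Runx1 alone of the 4 passed, against 8.99% of all genes, and at E12.5 limma called 0, with all 4 at an unadjusted p under 0.05. The rises over both stages were Runx1 (0.80 ± 0.13, adjusted p = 0.00319), Spi1, which encodes PU.1 (0.53 ± 0.15, adjusted p = 0.0392), Fli1 (0.48 ± 0.13, adjusted p = 0.032) and Erg (0.39 ± 0.10, adjusted p = 0.0256). Their median over both stages was 0.50 against -0.002 over all genes. Lmo2 fell in the same comparison and Lyl1 and Tal1 did not pass. Without the 3 arrays limma called 0 of the 4, and all 4 had an unadjusted p under 0.05 (median 0.55). In WT/GATA1s over both stages 1 rose, Runx1 (0.65 ± 0.13, adjusted p = 0.0192), where 3.5% of all genes passed, and without the 3 arrays limma called 0 (2 at an unadjusted p under 0.05). In ERG Tg limma called 0 of the 4 at E14.5, at E12.5 and over both stages (3, 0 and 3 at an unadjusted p under 0.05). Whether the mouse Erg probe set reads the transgene was not checked.

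**Figure D5:**
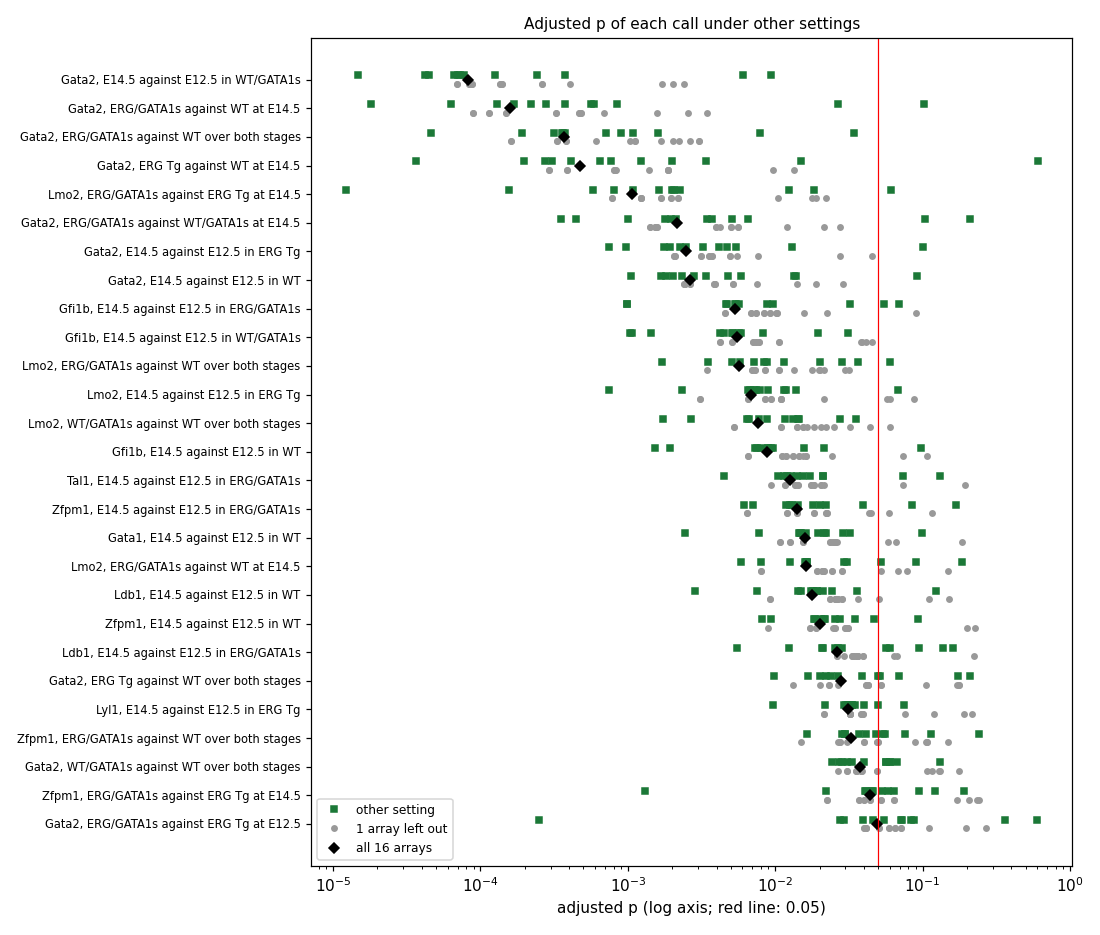
Adjusted p, on a log axis, of the 27 differences of the 8 genes that passed in the comparisons of genotypes and of stages, with all 16 arrays (diamonds), with 1 array left out (grey circles) and under other settings (squares). The vertical line marks 0.05. The stage differences of Gata2 and Gfi1b in WT/GATA1s, and the difference of Gata2 in ERG/GATA1s from WT over both stages, stay left of the line throughout.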

How the data were processed

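The 16 arrays measured total RNA labelled with an Affymetrix whole-transcript kit, per the labels' protocols. The authors deposited RMA values, in log2 signal for each probe set. RMA is named, with no version, per the submitters' processing notes. No background correction could be varied, since scanner files are not used here. Of 28270 probe sets, 21780 map to 1 symbol, 1617 to several and 4873 to none. The probe set of highest mean stood for each symbol, and a probe set had to exceed 3.74, the 30th percentile of the whole table, on 2 or more arrays. This left 15742 genes and 1063 probe sets with several symbols, 16805 in all.

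The fit used limma 3.58.1 (lmFit and eBayes) under R 4.3.3 on all 16 arrays, with a mean for each group and a term for labelled sex, leaving 7 residual degrees of freedom. Tests were two-sided, with Benjamini-Hochberg adjustment over all 16805 and a threshold of 0.05. The labels give no batch. Symbols come from GEO's platform annotation. The genes, the gene lists and the marker lists were chosen with earlier results of these data known. From a list, up to 4 genes that passed in a comparison, by smallest adjusted p, could be named, and for likeness the 3 genes of highest r with each of the 8. Fits were tested on simulated data. The comparisons of ERG/GATA1s with WT/GATA1s and with ERG Tg, the list counts without 3 arrays and 1 alternative on probe sets with several symbols were added after seeing the data. For list counts at an unadjusted p under 0.05 without the 3 arrays, the count over all genes was not taken.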

Additional observations from a re-analysis of the deposited data

Results flagged for a closer look

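The stage difference in Gata2 differed between genotypes by a test of that difference. The F test over the 3 stage by genotype terms gave an adjusted p of 0.00239 (limma), with mean signal at E14.5 and E12.5 of 8.56 and 8.34 in ERG/GATA1s, 6.58 and 8.51 in WT/GATA1s, 8.55 and 7.22 in ERG Tg, and 6.18 and 7.51 in WT. The difference of ERG Tg from WT was 2.66 higher on the log2 scale at E14.5 than at E12.5 (adjusted p = 0.00938). In ERG Tg both E14.5 arrays lay above both E12.5 arrays, and in WT both lay below. No other of the 8 genes passed the F test. The adjusted p of the F test lay between 0.000891 and 0.017 when each array was left out in turn, and was 0.138 without the 3 arrays with sex markers against their label.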

How the results depend on the processing

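In the comparisons of genotypes and of stages, 27 differences of the 8 genes passed, and over 28 other settings (12 of processing, and 16 that each left out 1 array) none of them changed direction. Of 756 such refits, 633 kept the call and 123 lost it. The F test of Gata2 was refitted too, and its stage by genotype term of ERG Tg was not. The number of the 8 genes called moved by more than 1.5 times as follows, and smaller moves are not listed. With no arrays but those of the compared groups it became 0 for ERG Tg against WT at E14.5 and over both stages, 0 for ERG/GATA1s against WT at E14.5, and 0 for ERG/GATA1s against WT/GATA1s and against ERG Tg at E14.5. It also became 0 for the stage difference in WT and in ERG Tg, and 1 for WT/GATA1s over both stages and ERG/GATA1s at E12.5. This fit has fewer samples, and the F test was not run in it. Without the 3 arrays with sex markers against their label it became 0 for ERG Tg over both stages, the stage difference in ERG/GATA1s, the F test, ERG/GATA1s against WT/GATA1s at E14.5 and against ERG Tg at E12.5. It became 1 for WT/GATA1s over both stages, for ERG/GATA1s against WT at E14.5 and over both stages, and against ERG Tg at E14.5. With arrayWeights it became 0 for ERG Tg over both stages, the stage difference in ERG/GATA1s and ERG/GATA1s against ERG Tg at E12.5, 1 for WT/GATA1s at E12.5 and over both stages, 2 for ERG/GATA1s against WT/GATA1s at E14.5, 4 against ERG Tg at E14.5, and 5 for the stage difference in ERG Tg. With trend and robust in eBayes it became 2 and 1 for WT/GATA1s at E12.5 and E14.5, 4 over both stages, and 5 for the stage difference in ERG Tg. A further quantile normalization gave 2 for ERG Tg at E14.5, 2 and 1 for WT/GATA1s at E12.5 and E14.5, 1 for ERG/GATA1s against ERG Tg at E14.5 and 5 for the stage difference in ERG Tg. With a Y-linked level in place of labelled sex, there was 1 for WT/GATA1s at E12.5, 1 for ERG/GATA1s at E14.5, and 0 at E12.5 and 1 at E14.5 against ERG Tg. With no filter, and with all probe sets, there were 0 for ERG Tg over both stages, 1 for WT/GATA1s over both stages, and 0 at E12.5 and 1 at E14.5 for ERG/GATA1s against ERG Tg. Centring each array on its median gave 1 for WT/GATA1s over both stages and 0 for ERG/GATA1s against ERG Tg at E12.5, and no sex term gave 0 for that last comparison. Comparisons of ERG/GATA1s with WT/GATA1s and with ERG Tg, and keeping 1 probe set per combination of symbols, were added after seeing the data. The causes were not tested.

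Leaving out each array in turn gave 0 to 1 called genes for ERG Tg over both stages, 1 to 1 at E14.5 and 0 to 0 at E12.5. For WT/GATA1s it gave 0 to 3 over both stages and 0 to 1 at either stage, and for ERG/GATA1s 2 to 4 over both stages, 1 to 2 at E14.5 and 0 to 2 at E12.5. For ERG/GATA1s against WT/GATA1s it gave 1 to 1 at E14.5 and 0 to 0 at E12.5, and against ERG Tg 1 to 2 and 0 to 2. For the stage difference it gave 0 to 4 in ERG/GATA1s, 2 to 3 in WT/GATA1s, 1 to 4 in ERG Tg and 1 to 5 in WT. The F test gave 1 to 1 and the ERG by GATA1s terms 0 to 0. An array left alone in its group was assumed to vary like the others. No paired analysis was possible because the labels carry no replicate numbers, and labelled sex was already in the fit.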

Other observations

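Partners and corepressors of the 8 genes were counted as well. Of 15 genes (E protein, LMO, LDB, SSBP, ETO family and ID genes, with Klf1), 1 rose in ERG Tg at E14.5, where 1.45% of all genes passed. It was Cbfa2t3, which encodes the TAL1 corepressor ETO2 (1.04 ± 0.16, adjusted p = 0.00599), and 0 fell. In ERG/GATA1s at E14.5, 4 rose and 2 fell, where 4.45% of all genes rose and 4.54% fell. The falls were Klf1, the red cell factor (-0.81 ± 0.14, adjusted p = 0.0028), and Ssbp3, an LDB1 binding protein (-0.58 ± 0.14, adjusted p = 0.0234). The rises were Id3 (0.79 ± 0.19, adjusted p = 0.0232) and Id1 (0.65 ± 0.18, adjusted p = 0.0403), inhibitors of E proteins, with Ssbp4 (0.56 ± 0.15, adjusted p = 0.0324) and Cbfa2t3 (0.59 ± 0.16, adjusted p = 0.036). All 6 are named. Without the 3 arrays with sex markers against their label, 0 rose and 1 fell in ERG/GATA1s (6 at an unadjusted p under 0.05, limma), where 2.27% of all genes passed, and the count in ERG Tg was again 1, with 0.863%. Between the stages in WT, 4 of the 15 fell and 0 rose, against 18% of all genes in either direction and 6.71% lower. They were Ssbp4 (-1.15 ± 0.15, adjusted p = 0.000456), Cbfa2t3 (-0.95 ± 0.16, adjusted p = 0.00207), Tcf3, which encodes the E2A proteins (-0.76 ± 0.13, adjusted p = 0.00232), and Lmo4 (-0.64 ± 0.15, adjusted p = 0.0131).

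Of 22 corepressors of GFI1B and FOG1, 1 passed in ERG/GATA1s against WT at E14.5, where 8.99% of all genes passed. It was the histone binding protein Rbbp4 (-0.53 ± 0.15, adjusted p = 0.0387). It was lost without the 3 arrays, where limma called 0 (6 at an unadjusted p under 0.05). Between the stages 6 fell in ERG/GATA1s, 5 in WT/GATA1s, 3 in ERG Tg and 6 in WT, and 0 rose in any of the 4. Of all genes 7.49%, 8.57%, 4.94% and 6.71% fell in the same genotypes. Ctbp2, a partner of FOG1, fell in each of the 4, by 0.71 ± 0.13 in ERG/GATA1s, 0.72 ± 0.13 in WT/GATA1s, 0.86 ± 0.13 in ERG Tg and 0.76 ± 0.13 in WT (adjusted p of 0.00236, 0.00147, 0.000965 and 0.00212). Without the 3 arrays limma called 3 in ERG Tg, where 17.8% of all genes passed, and 5 in WT, where 18.4% passed. That fit leaves 1 array in each ERG/GATA1s group and in E12.5 WT/GATA1s. The calls in ERG/GATA1s were then lost, and a smaller share of all genes passed there too. The median of the 22 was -0.44 in ERG/GATA1s and -0.24 in WT/GATA1s, against -0.27 and -0.22 with all arrays. The other GATA and FOG family genes were Gata3, Gata4, Gata5, Gata6, Zfpm2 and Trps1. Against WT at E14.5 limma called 0 of them in ERG/GATA1s, 0 in WT/GATA1s and 0 in ERG Tg. Of all genes 8.99%, 1% and 1.45% passed there. At an unadjusted p under 0.05 the counts at E14.5 were 2, 1 and 0. Between the stages limma called 2 of the 6 as higher at E14.5 in WT/GATA1s and 1 as lower in ERG Tg. It called 0 in ERG/GATA1s and 0 in WT. Of all genes 21.9%, 17.4%, 21.1% and 18% passed in these genotypes, in the same order. Without the 3 arrays the call in ERG Tg was lost, where 17.8% of all genes passed. The 2 calls in WT/GATA1s did not both hold in that fit, which leaves 1 WT/GATA1s array at E12.5. The median of the 6 there was 0.036, against 0.035 with all arrays.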
